A study of Mus musculus with 2 samples.

Results

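Among the fibroblasts of the neonatal mouse heart, a small set of cells carried RNA for more of the genes Gdf10, Wisp1, Rbp4 and Gfra2 than of the genes that mark the other fibroblast classes, and 155 such cells were found among 13502 kept cells. The cells were selected on their own counts. A cell entered when it held at least 10 unique molecular identifiers (UMIs, each standing for 1 captured RNA molecule) of Col1a1 and Col3a1 together and none of Pecam1 or Ptprc, which left 4864 gated fibroblasts. Of these, a member had at least 2 of the 4 genes Gdf10, Wisp1, Rbp4 and Gfra2 detected, and more of them than of each of 3 rival lists of 4 genes: Col26a1, Dpep1, Tenm4 and Slc38a5 for Col26a1/Dpep1 fibroblasts, Pi16, Clec3b, Mfap5 and Sema3c for Pi16/Clec3b fibroblasts, and Fmod, Prss35, Wif1 and Scx for Fmod/Scx fibroblasts. The cells are called Gdf10/Wisp1 fibroblasts here, or members.

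The study concerned the first week after birth, the window in which the mouse heart can regenerate, and set hearts of postnatal day 1 (P1) beside hearts of day 7 (P7). Each age is 1 single-cell library from 3 hearts of 1 litter, pooled, dissociated with collagenase for 20 min at P1 and 45 min at P7, and sorted for live cells. The study's methods call the animals intact. The strain of these mice is not given in the sources used here, and neither is any transgene or treatment. Xist was detected in all 76 members at P1 and in 0 of 79 at P7, whereas genes of the Y chromosome were detected in 0 members at P1 and in 73 at P7, so age, sex, litter and digestion time cannot be told apart in any comparison of the 2 libraries. With 1 library per age no test between ages was possible, and every interval below is a 95% interval that covers counting error only.

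Cardiac fibroblasts build and turn over the collagen scaffold of the heart wall, the adventitia of its vessels and the leaflets of its valves. Elastic fibres consist of a core of elastin, encoded by Eln, laid on microfibrils of fibrillins, with fibulins and microfibril-associated proteins that help to assemble them and lysyl oxidases that crosslink them. GDF10 is a secreted protein of the TGF-beta superfamily, WISP1 a matricellular CCN protein induced by Wnt signalling, RBP4 the carrier of retinol in blood, and GFRA2 the receptor for neurturin that acts together with RET. In the hedgehog pathway a secreted ligand binds PTCH1 and thereby frees SMO to activate the GLI transcription factors, and Gli1, Ptch1 and Hhip are themselves well-known targets of the pathway.

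At P1, 4991 of 7836 deposited barcodes were kept, with 59026295 UMIs, and at P7, 8511 of 9077, with 97432007 UMIs. The 2 tables shared 18 barcode sequences, 13 of them in kept cells and 0 in members. The 76 members at P1 summed to 1268219 UMIs, at 16533.5 UMIs and 4249 genes in the median cell, and the 79 members at P7 summed to 1247111 UMIs, with medians of 15132 UMIs and 4188 genes. The other gated fibroblasts had median UMIs of 13847.5 at P1 (1782 cells) and 15873 at P7 (2927 cells). At this depth 1 UMI in the summed members was worth 0.789 CPM (UMIs scaled to a sum of 1e6) at P1 and 0.802 CPM at P7, and a gene with no UMI in the members may be present at up to 2.37 CPM at P1 and 2.41 CPM at P7 (3 counts).

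Gdf10/Wisp1 fibroblasts made up 4.09% of the gated fibroblasts at P1 (76 of 1858, exact binomial interval 3.24 to 5.09%) and 2.63% at P7 (79 of 3006, 2.09 to 3.26%), intervals that touch at their ends. As a share of all kept cells they were 1.52% at P1 and 0.928% at P7. The denominator differed in make-up between the libraries, with Pi16/Clec3b fibroblasts at 14.5% of gated cells at P1 and 61.0% at P7 and Col26a1/Dpep1 fibroblasts at 34.2% and 10.4%. The 2 shares also depend on depth. When each cell was thinned to 2000 UMIs before the rule was applied, the shares were 1.21% at P1 and 1.25% at P7, and at 5000 UMIs they were 2.94% and 2.23%, so the order of the ages was not the same at each depth.

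The number of list genes in a member is part of the rule and is given as a description. At P1, 24 members had 2 of the 4 genes detected, 43 had 3 and 9 had all 4, and at P7 the counts were 21, 20 and 38. Most members also held rival genes: 21 of 76 at P1 and 25 of 79 at P7 had none of the Col26a1/Dpep1 list, 23 and 10 none of the Pi16/Clec3b list, and 45 and 46 none of the Fmod/Scx list. A cell with more rival genes needed more of the 4 genes to enter, so the counts by age are not a comparison of the ages. The median depth was higher in members with more of the genes, from 12770 UMIs with 2 genes to 17754 with 4 at P1 and from 14022 to 16185.5 at P7. Just outside the rule lay 67 gated cells at P1 and 94 at P7 in which the list was tied with a rival list, 80 and 174 cells with at least 2 of the 4 genes but more of a rival list, and 21 and 25 cells with 1 of the 4 genes and none of a rival list. Gdf10 in the tied cells was at 94.2 and 200 CPM, and in the cells with more rival genes at 61.2 and 69.1 CPM, against 177 and 325 CPM in the members.

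**Figure D1:**
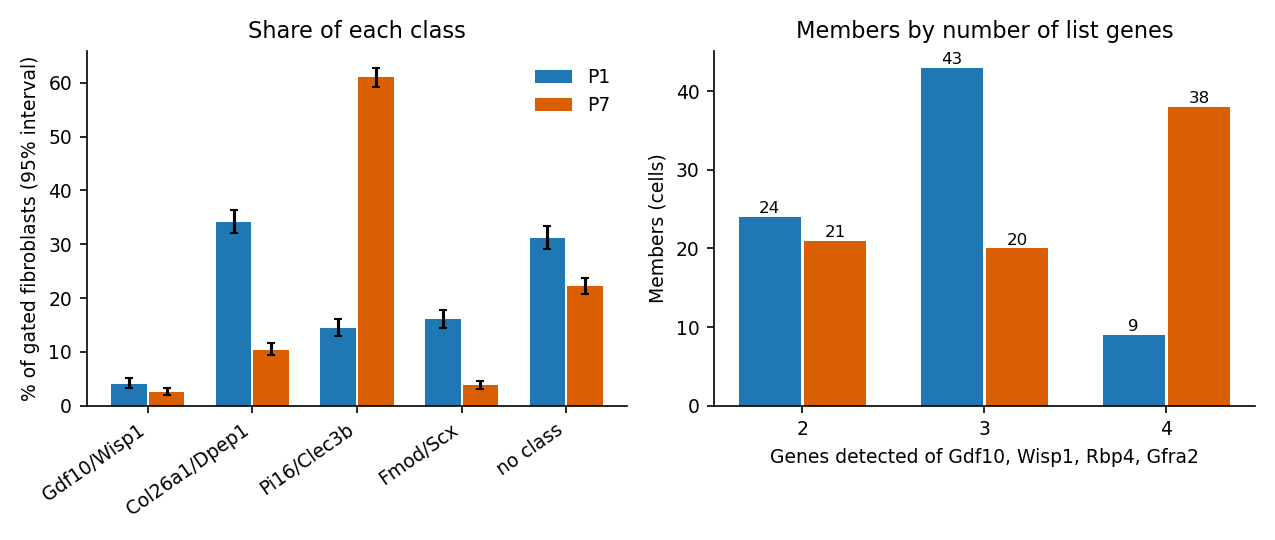
Left, share of each class among gated fibroblasts at P1 and P7 in percent, with exact binomial 95% intervals. Right, number of Gdf10/Wisp1 members with 2, 3 or 4 of the genes Gdf10, Wisp1, Rbp4 and Gfra2 detected: 9 members at P1 and 38 at P7 had all 4, a count that the rule itself bears on.

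The 4 genes that define the class are given as a description, since they chose the cells. Gdf10 (ENSMUSG00000021943, GRCm38 chr14:33923587-33937983, plus strand) was at 177 CPM in members at P1 and 325 CPM at P7, and at 17.5 and 14.0 CPM in the other gated fibroblasts. Wisp1 (chr15:66891320-66923201, plus strand) was at 133 CPM in members at P1 and 181 CPM at P7. Gfra2 was at 155 and 175 CPM, and Rbp4 showed the widest step between the ages, from 57.6 CPM at P1 to 155 CPM at P7. Ret, the partner of GFRA2, was not detected, with 0 UMIs in the members of either library and 4.29 and 16.8 CPM in the other gated fibroblasts. In endothelial cells of the same libraries, a background for free RNA, Gdf10 was detected in 0.924% of 1840 cells at P1 and in 0.797% of 3640 cells at P7 (median 9990.5 and 7455.5 UMIs), far below the 72.4% and 81.0% of members and also below the 13.7% and 6.63% of other gated fibroblasts.

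A measure that the rule did not use can be had by dropping 1 gene from the list, choosing the cells on the other 3, and reading the dropped gene. Cells chosen without Gdf10 (37 at P1, 32 at P7) held Gdf10 at 101 CPM (76.5 to 130) at P1 and 191 CPM (155 to 233) at P7, 4.32-fold and 9.38-fold the level of the remaining gated cells. Wisp1 in cells chosen without it was 3.69-fold and 7.60-fold higher, and Gfra2 was 6.05-fold and 3.72-fold higher. For Rbp4 the fold was 2.30 at P1, 35.9 CPM (23.7 to 52.2) against 15.6, and 5.40 at P7. The dropped gene had a UMI in 22.4% (Rbp4) to 56.25% (Gfra2) of the chosen cells at P1 and in 18 of 40 (Rbp4) to 17 of 30 (Wisp1) at P7, so its summed level was higher in these cells while many of them had no UMI of it. Each library is 1 pool.

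**Figure D2:**
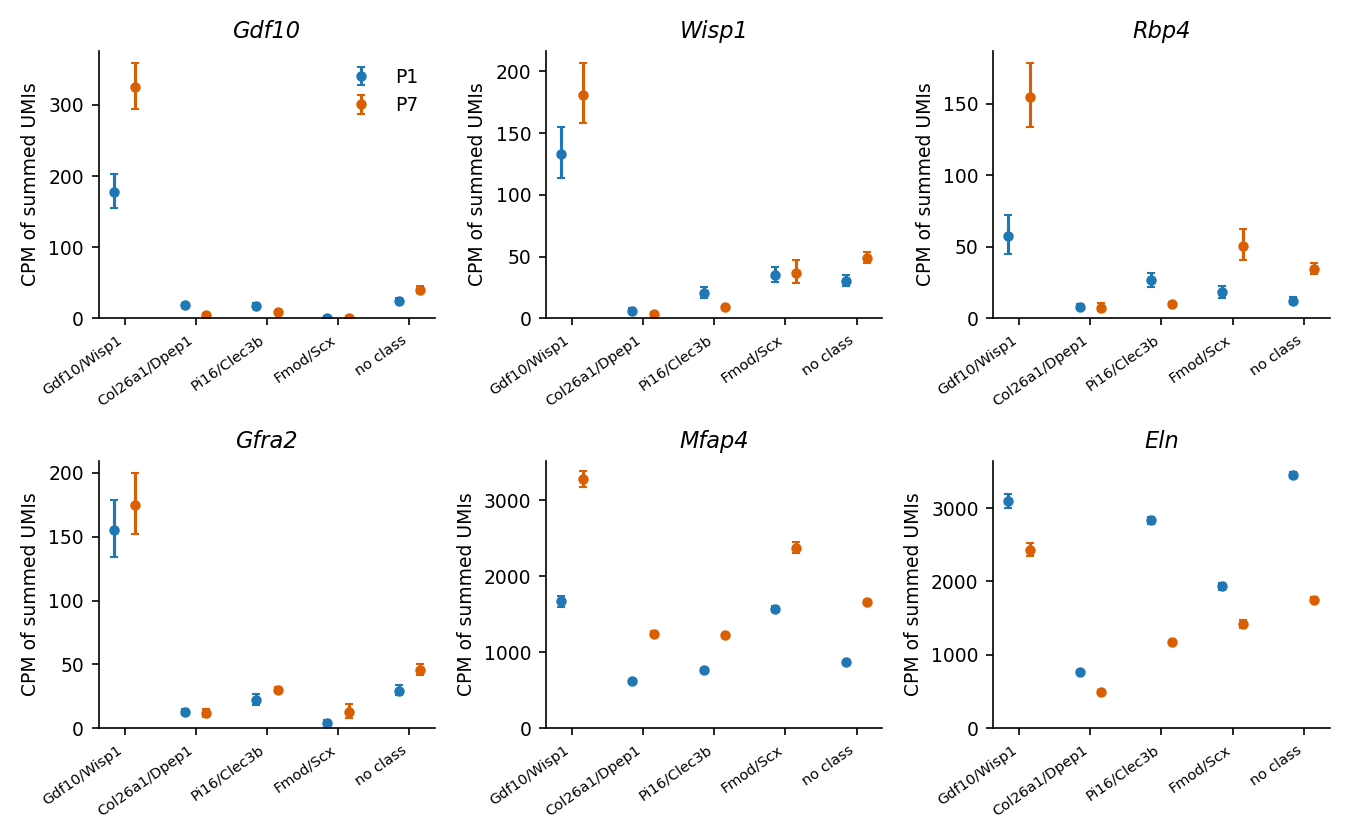
Level of Gdf10, Wisp1, Rbp4, Gfra2, Mfap4 and Eln in each class of gated fibroblasts, in CPM of UMIs summed over the cells of the class, at P1 and P7, with Poisson 95% intervals. The first 4 genes chose the members. Mfap4 was higher in the members than in the other gated fibroblasts together at both ages, and for Eln the cells in no class stood above the members at P1.

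The name elastin-rich held in part. Mfap4, which encodes a microfibril-associated glycoprotein of elastic fibres, was at 1669 CPM in members against 867 CPM in other gated fibroblasts at P1 and at 3279 against 1354 CPM at P7. The median of single cells was likewise higher, 1576 against 526 CPM at P1 and 3047 against 925 CPM at P7. Mfap4 was not particular to members, since Fmod/Scx fibroblasts had medians of 1459 and 2350 CPM.

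Eln (chr5:134702593-134747323, minus strand) was at 3091 CPM in the summed members at P1 and 2433 CPM at P7, against 2066 and 1225 CPM in the other gated fibroblasts. The sum at P1 came from few cells. One member held 1283 of the 3920 Eln UMIs (32.7%), the median member at P1 was at 367 CPM beside 324 CPM in the other gated fibroblasts, and 10 members had no Eln UMI. At P7 the median member was at 839 CPM beside 437 CPM. The cells in no class reached 3451 CPM of Eln at P1, more than the members. Among members without a UMI of Myh11, the smooth muscle myosin heavy chain, Eln was at 1537 CPM at P1, beside 1470 CPM in other gated fibroblasts without Myh11, and at 2140 CPM at P7, beside 1156 CPM. With cells chosen without Wisp1 the log2 ratio of members over others at P1 turned from 0.58 to -0.44, and it was also below 0 for members with at least 3 list genes. So at P1 the higher sum of Eln rested on the 8 members with a Myh11 UMI, and at P7, where 3 members had one, it did not.

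Members with all 4 list genes had the highest median RNA levels of both Mfap4 and Eln. Their median for Mfap4 was 2995 CPM at P1 (9 cells) and 4245 CPM at P7 (38 cells), and for Eln 4493 CPM at P1, with cells from 91.8 to 16868 CPM, and 1649 CPM at P7. Eln did not follow the number of genes in order, since members with 2 list genes had medians of 1529 and 739 CPM and members with 3 had 300 and 675 CPM. The elastic fibre list as a whole was at 9715 CPM in members at P1 and 11578 CPM at P7, against 8137 and 8759 CPM in the other gated fibroblasts as a whole and 9998 and 10310 CPM in the Fmod/Scx class among them.

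**Figure D3:**
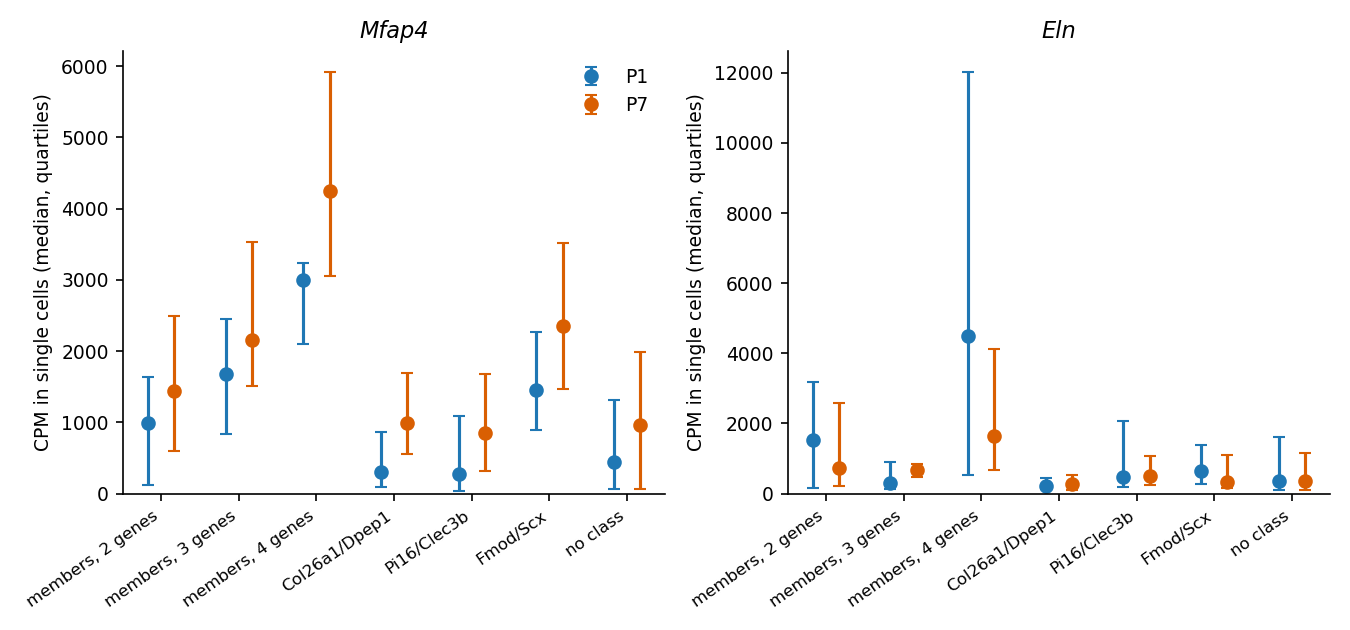
Mfap4 and Eln in single cells, in CPM of each cell, as the median (point) and the quartiles (bars), for members with 2, 3 or 4 list genes and for the other classes of gated fibroblasts at P1 and P7. Members with 4 genes had the highest medians, 2995 and 4245 CPM for Mfap4 and 4493 and 1649 CPM for Eln.

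Of 6 smooth muscle markers 2, Acta2 and Myl9, were at least 2-fold higher in members than in the other gated fibroblasts at both ages, beside 1.22% of all genes (on the scale described below). The list of 6 smooth muscle markers summed to 4289 CPM in members at P1 and 2811 CPM at P7, against 1913 and 1143 CPM in other gated fibroblasts, with Acta2 as its most abundant gene (2271 and 1365 CPM in members) and no marker at 0. The gated cells in no class were at 3950 and 3005 CPM and the Fmod/Scx fibroblasts at 2689 and 2719 CPM for the same list, so at P7 members did not stand above all classes. At least 2 of the 6 markers were detected in 89.5% of members at P1 and 89.9% at P7. The shares were 47.9% and 58.6% in other gated fibroblasts as a whole and 74.5% and 85.8% in the Fmod/Scx class. By level, Acta2, which encodes smooth muscle actin, was concentrated in members with only 2 list genes, at 6173 CPM at P1 and 4234 CPM at P7. Members with 3 or 4 list genes ranged from 412 to 825 CPM over the 2 ages. One member carried 34.1% of the Acta2 UMIs at P1 and one carried 34.7% at P7. Without the members and other cells that had a Myh11 UMI, Acta2 was still at 1009 against 404 CPM at P1 and 568 against 263 CPM at P7. The part of mural cells in these values was not tested.

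Markers of other lineages were counted over their whole lists. Pericyte markers (6 genes, most abundant Rgs5) summed to 578 and 475 CPM in members and to 328 and 483 CPM in other gated fibroblasts. Among the others, the cells in no class were at 783 and 2011 CPM. At least 2 pericyte markers were detected in 48.7% and 51.9% of members and in 22.0% and 20.7% of other gated fibroblasts. For the cells in no class the shares were 27.2% and 42.6%. Endothelial markers summed to 155 and 178 CPM, most of it Fabp4 (129 and 144 CPM), with Cldn5 at 0 at P1. Macrophage markers were at 16.6 and 13.6 CPM, cardiomyocyte markers at 122 and 81.0 CPM (249 and 93.0 CPM in other gated fibroblasts), glial markers at 2.37 and 29.7 CPM and lymphocyte markers at 0 and 4.81 CPM. Epicardial markers were at or near 0, with 3 UMIs in the P1 members and 2 in the P7 members over 6 genes and Msln, Upk1b, Bnc1 and Dmkn at 0 in both. Lung and posterior positional markers (9 genes) gave 49.7 and 5.61 CPM, and 5 members at P1 but 0 at P7 had 2 or more of them. Lung epithelial markers were at 7.89 and 0.802 CPM. After the lysis of red cells, erythroid markers, led by haemoglobin, were at 14.2 and 24.9 CPM in members. They were at 348 and 187 CPM in other gated fibroblasts, of which 1.23% at P1 had 2 or more of these markers. At P1 Fmod/Scx fibroblasts were at 1210 CPM and Col26a1/Dpep1 fibroblasts at 388 CPM. Only 3 of the 298 Fmod/Scx cells and 8 of the 635 Col26a1/Dpep1 cells had 2 or more of the markers. Pi16/Clec3b fibroblasts, at 12.3 CPM, and cells in no class, at 14.0 CPM, were close to the members. At P7 the classes ranged from 34.7 to 255 CPM, all above the members. At that age 5.06% of members and 7.55% of other gated fibroblasts had 2 or more of the markers.

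The general fibroblast markers were present in members, and 0 of 8 were 2-fold higher or lower at both ages, beside 1.22% and 4.37% of all genes tested. Tcf21, a transcription factor of cardiac fibroblasts, was at 449 CPM against 661 CPM at P1 and at 548 against 841 CPM at P7. Pdgfra, the PDGF receptor used to mark fibroblasts, was at 82.8 against 157 CPM and 107 against 183 CPM. Decorin (Dcn), a small proteoglycan that decorates collagen fibrils, was at 2832 against 6369 CPM and 6375 against 11676 CPM. Col1a2, a chain of collagen I and the most abundant gene of the list in members, was at 4521 against 4354 CPM and 7783 against 5285 CPM.

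Many genes that the rule did not name were higher in the members. The genes compared were 14658 with at least 20 UMIs in total over members and other gated fibroblasts of both libraries. Of these, 431 (2.94%) were at least 2-fold higher in members than in other gated fibroblasts at both ages. Another 377 (2.57%) were at least 2-fold lower, on log2 ratios of CPM with 0.5 counts added to each sum. The added count weighs more on the small sum of the members. With the counts added in proportion to the size of each sum, the numbers were 179 (1.22%) and 641 (4.37%), and the lists below are counted on that scale. These comparisons describe the cells that were selected and carry no test, because the genes of a cell are not independent of the genes that chose it.

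Foxd1 headed the genes higher in members. This forkhead factor (ENSMUSG00000078302, chr13:98354242-98359305, plus strand), known from the stromal progenitors of the kidney, was at 63.1 CPM in members at P1 and 64.1 CPM at P7 (interval 50.9 to 79.8), against 1.99 and 3.44 CPM in other gated fibroblasts. The log2 ratios were 4.98 and 4.23. Foxd1 was detected in 25 of 76 members at P1 (32.9%) and 32 of 79 at P7 (40.5%), in 1.52% and 2.80% of other gated fibroblasts, and in 0 of 1840 endothelial cells at P1, which by the floor of 3 allows a share of up to 0.163% at the depth of those cells, and 3 of 3640 at P7. At P1 Foxd1 was at 16.8, 82.2 and 75.6 CPM in members with 2, 3 and 4 list genes. At P7 it was at 10.1, 9.73 and 115 CPM, so the cells with all 4 genes stood apart. Tied cells outside the class had 27.9 CPM at P1 and 44.7 CPM at P7.

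Several genes of the hedgehog response were higher in members. Ptch1, the receptor for hedgehog ligands (chr13:63508328-63573598, minus strand), was at 151 CPM (131 to 174) in members at P1 and 119 CPM (101 to 140) at P7, against 22.0 and 14.6 CPM. It was detected in 57 of 76 members at P1 and 41 of 79 at P7, in 19.9% and 15.95% of other gated fibroblasts and in 19.3% and 16.9% of endothelial cells, so these last shares were close, and whether the endothelial UMIs are free RNA was not tested. Gli1, the transcription factor (chr10:127329882-127341974, minus strand), was at 39.4 CPM (29.3 to 52.0) and 43.3 CPM (32.5 to 56.5), against 7.65 and 4.77 CPM. The intervals of members did not overlap those of other gated fibroblasts for Ptch1 or Gli1 at either age. Both were among the 12 genes picked for the highest ratios in members, so this is a description only. The share of all genes with intervals apart was not counted.

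Hhip, which encodes a protein that binds and sequesters hedgehog ligands, was at 12.6 CPM in members at P1 and 20.8 CPM at P7, against 5.13 and 0.902 CPM. The co-receptors went apart, with Boc at 59.1 and 46.5 CPM in members against 25.9 and 14.3 CPM, but Gas1 at 176 and 279 CPM against 512 and 817 CPM and Cdon at 9.46 and 6.41 CPM against 20.9 and 23.7 CPM. Smo, the signal transducer, was at 71.8 and 96.2 CPM against 78.5 and 73.1 CPM, and Gli3, which often acts as a repressor, at 25.2 and 19.2 CPM against 40.1 and 35.4 CPM. Of 16 genes of a hedgehog list that could be tested, 8 were at least 2-fold higher in members at both ages (among them Ptch1, Gli1, Hhip, Boc, Foxf1, Foxf2 and Foxl1) and 3 lower (Cdon, Gas1 and Disp1), beside 1.22% and 4.37% of all genes. The median log2 ratio of the list was 0.85 at P1 and 1.24 at P7, beside -0.08 and -0.03 for all genes. The list was written after these values were seen and some of its genes prompted it, so its count is a description only. Foxf1 and Foxf2 rested on few UMIs, 20 and 9 at P1 and 3 and 1 at P7. Foxf1 is also among the 9 lung and posterior markers and was the most abundant of them in members at P1. Summed over its genes, the hedgehog list was lower in members, at 639 and 725 CPM against 764 and 1037 CPM, with Gas1 its most abundant gene.

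Enpep, a membrane aminopeptidase that cleaves angiotensin II, was at 177 CPM in members at P1 and 62.5 CPM at P7, against 15.6 and 7.78 CPM. Nnat, an imprinted gene for a membrane proteolipid, was at 237 and 132 CPM against 32.8 and 19.4 CPM. Heyl, a transcriptional target of Notch signalling, was at 208 and 287 CPM against 56.5 and 75.4 CPM, and Lepr, the leptin receptor, at 100 and 225 CPM against 25.8 and 63.5 CPM. Foxs1, another forkhead factor, Kcne4, a potassium channel subunit, and Meox2, a homeobox factor of the somites and vessels, had log2 ratios between 1.78 and 2.75. Meox2 was not particular to members: it was detected in 38.2% and 60.8% of them and in 55.2% and 56.5% of endothelial cells. In other gated fibroblasts the shares were 13.6% and 17.4%. Of the collagens among the 12, Col8a1, a short-chain collagen, was at 71.8 and 206 CPM against 15.2 and 49.1 CPM and Col4a4, of the basement membrane type, at 39.4 and 87.4 CPM against 10.1 and 20.3 CPM. In each of these 12 genes no single member held more than 23.1% of the UMIs at P1 or 13.9% at P7.

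**Figure D4:**
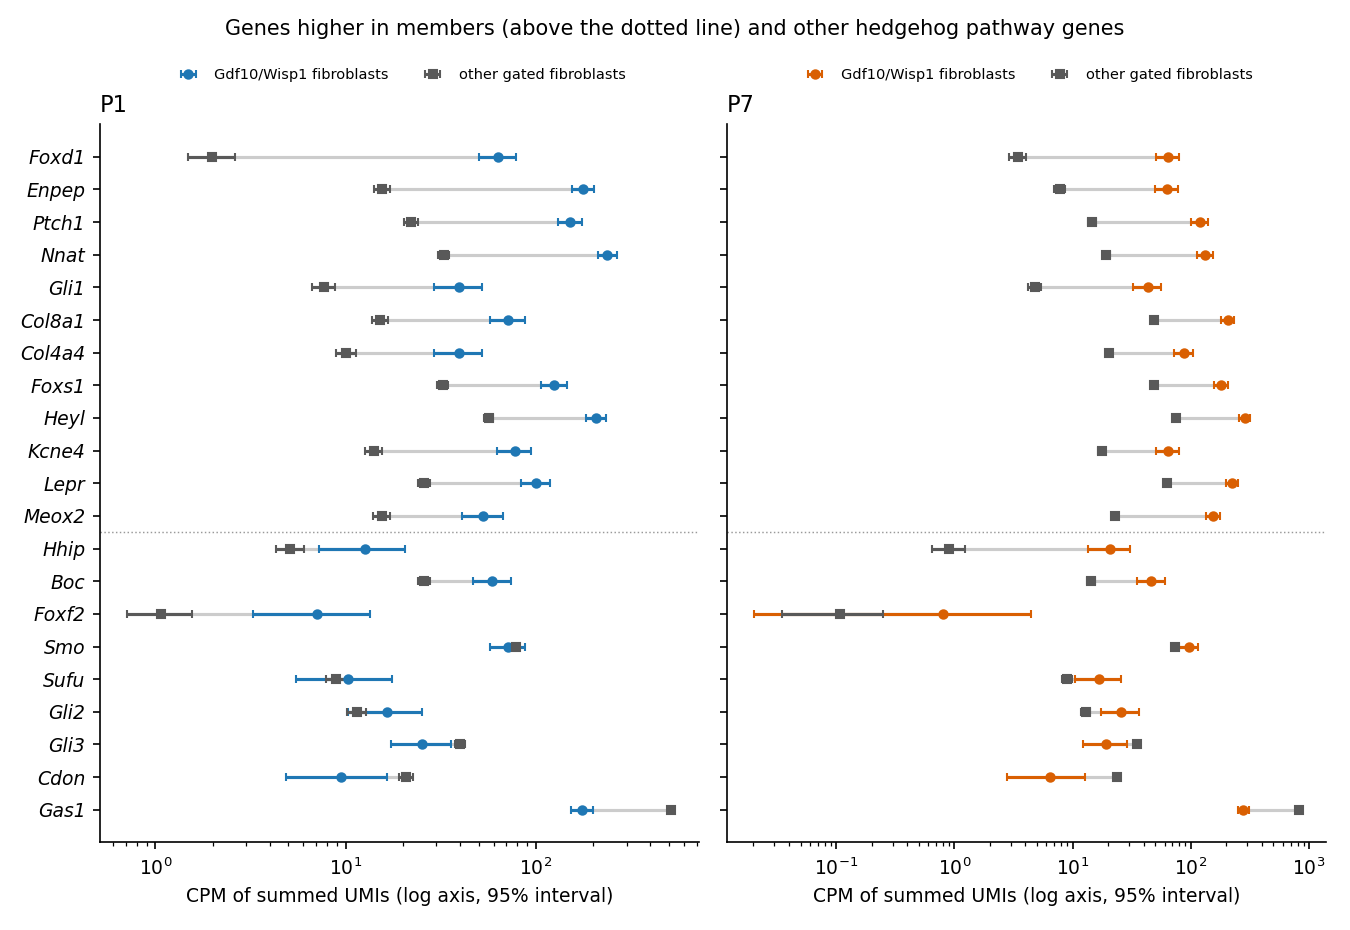
Level in CPM of summed UMIs (log axis) in Gdf10/Wisp1 members (circles) and other gated fibroblasts (squares) at P1 (left) and P7 (right), with Poisson 95% intervals. The 12 genes above the dotted line were the highest in members at both ages among those with at least 50 UMIs, and the genes below it are further members of the hedgehog pathway. Hhip and Boc stand higher in members, Gas1 and Cdon lower, and Smo close to the other cells.

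Promoter sequences of 4 of the genes are shown because the genes were high in the same cells: Gdf10 as the name-giving gene, Foxd1 as the most enriched, Ptch1 as the hedgehog receptor and Kcne4 as the single gene of the 12 with a match to the short motif below. Each runs 5′ to 3′ from 250 bases before to 50 bases after the RefSeq start, on build GRCm38.p6, and is chr14:33923337-33923636 (plus) for Gdf10, chr13:98353995-98354294 (plus) for Foxd1, chr13:63565686-63565985 (minus) for Ptch1 and chr1:78816661-78816960 (plus) for Kcne4. Capitals mark the letters CCACCCA.
Gdf10: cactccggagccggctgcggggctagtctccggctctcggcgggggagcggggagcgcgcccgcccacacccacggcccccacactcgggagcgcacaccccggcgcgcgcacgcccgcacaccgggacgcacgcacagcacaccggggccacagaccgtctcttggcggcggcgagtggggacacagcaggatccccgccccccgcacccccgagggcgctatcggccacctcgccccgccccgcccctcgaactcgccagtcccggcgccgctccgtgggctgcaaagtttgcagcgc
Foxd1: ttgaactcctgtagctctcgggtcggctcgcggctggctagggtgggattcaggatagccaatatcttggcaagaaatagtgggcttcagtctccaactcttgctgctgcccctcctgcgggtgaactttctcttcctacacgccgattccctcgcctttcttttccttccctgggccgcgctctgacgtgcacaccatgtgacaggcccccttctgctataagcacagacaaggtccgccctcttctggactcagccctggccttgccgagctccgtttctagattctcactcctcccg
Ptch1: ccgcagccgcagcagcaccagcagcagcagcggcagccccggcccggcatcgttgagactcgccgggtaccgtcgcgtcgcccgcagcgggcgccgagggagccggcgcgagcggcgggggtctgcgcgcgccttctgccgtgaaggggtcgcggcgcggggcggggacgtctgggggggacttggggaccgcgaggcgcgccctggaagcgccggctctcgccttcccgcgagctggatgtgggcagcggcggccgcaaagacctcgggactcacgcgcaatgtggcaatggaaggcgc
Kcne4: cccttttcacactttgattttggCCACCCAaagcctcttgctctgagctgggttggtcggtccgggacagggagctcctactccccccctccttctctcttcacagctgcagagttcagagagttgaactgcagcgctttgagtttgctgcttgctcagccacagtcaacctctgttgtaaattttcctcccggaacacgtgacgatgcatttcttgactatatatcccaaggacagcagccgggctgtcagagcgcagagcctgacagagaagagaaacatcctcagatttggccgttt
The GLI consensus GACCACCCA and its shorter core CCACCCA, which lies within it, were searched on both strands. The longer motif is in 83 of 32851 promoters of the table (0.253%) and in none of those of the 12 genes, of which 9 had an entry, or of the hedgehog list, of which 12 of 18 had one. The shorter is in 9.30% of all promoters, in Kcne4 among the 12 and in none of the hedgehog list. An absent match says only that these letters are not in this window. The table gives 1 start a gene, and for Ptch1 and Kcne4 it lies inside the gene, whose annotated span begins at 63573598 on the minus strand for Ptch1 and at 78816758 for Kcne4. The windows of Gdf10 and Ptch1 hold 42 and 47 CG pairs, that of Foxd1 15 and that of Kcne4 9, beside a median of 7 over the table.

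The 12 genes lowest in members were at or near 0 UMIs, so their differences are bounds set by depth. Prg4, the joint lubricant proteoglycan, had 0 UMIs in members at P1 and was at least 11.5-fold higher in other gated fibroblasts. Dpp4, a surface peptidase of the Pi16/Clec3b type of fibroblast, had 0 UMIs at both ages and was at least 3.49-fold and 13.4-fold higher in the others. Msln, a mesothelial marker, was at least 26.8-fold and 4.39-fold higher. Comp, a cartilage matrix protein, Ccl7, a chemokine, and Onecut2, a transcription factor, also had 0 UMIs in members of both libraries, at least 2.67-fold to 7.74-fold below the others. Efemp1, a fibulin, had 2 and 1 UMIs, Cyp26a1, which breaks down retinoic acid, 2 and 0, and C3, the central complement component, and Upk3b 1 and 0 each. Pla1a, a phospholipase, was at 3.94 and 4.01 CPM in members against 49.6 and 99.2 CPM.

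Within lists, the elastic fibre genes were unevenly distributed. Of 23 genes, 0 were at least 2-fold higher in members at both ages and 3 were lower, beside 1.22% and 4.37% of all genes, with list medians of -0.04 at P1 and 0.10 at P7. The 3 lower genes were Efemp1, Fbln2, an extracellular fibulin (188 and 172 CPM against 457 and 650 CPM) and Emilin2 (5.52 and 4.01 CPM against 14.2 and 71.4 CPM). Fbln5, which links elastin to cells and is needed for fibre assembly, was at 351 CPM in members beside 342 CPM at P1 and at 553 beside 265 CPM at P7. Lox, a crosslinking oxidase, was at 136 beside 87.5 CPM and 153 beside 80.5 CPM, and Fbn1, the main fibrillin, at 714 beside 495 CPM at P1 but 826 beside 955 CPM at P7.

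The signalling lists gave few genes past 2-fold, to be read beside 1.22% of all genes higher and 4.37% lower in members. Among secreted Wnt inhibitors, Sfrp1 was higher in members at both ages, 491 and 662 CPM against 205 and 260 CPM, and was the 1 gene of 8 past 2-fold. Of 13 BMP and TGF-beta ligands Bmp3 was higher, on 11 and 6 UMIs, and Bmp6 and Inhba were lower, at 11.8 and 8.82 CPM against 30.8 and 60.04 CPM for Bmp6 and at 15.8 and 33.7 CPM against 46.6 and 106 CPM for Inhba. Of 10 antagonists 4 were lower (Chrd, Chrdl1, Sostdc1 and Nbl1) and 0 higher, and among receptors Acvr2b was the 1 of 12 that was higher, at 12.6 and 12.8 CPM against 5.43 and 5.29 CPM. In the retinoid list 3 of 15 genes were lower (Crabp1, Aldh1a2 and Cyp26a1) and 0 higher apart from Rbp4, which is a rule gene. Aldh1a2, which makes retinoic acid, was at 18.1 and 61.7 CPM in members against 204 and 264 CPM.

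Between the ages, 300 of 9049 genes tested within members (3.32%) were at least 2-fold higher at P1 and 342 (3.78%) at least 2-fold higher at P7, and for 256 and 293 of these the counting interval of the ratio also lay beyond 0. Over all genes tested, log2 ratios (P1 over P7) had a median of -0.02 in members and 0.01 in other gated fibroblasts.

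Genes of mitosis were among the 12 with the widest steps towards P1. Ube2c, an E2 enzyme of the anaphase-promoting complex, had 160 UMIs in 12 members at P1 (126 CPM, 107 to 147) and 2 UMIs in 1 member at P7 (1.60 CPM, 0.194 to 5.79), a log2 ratio of 5.98. In other gated fibroblasts it was at 59.5 and 57.1 CPM. Birc5, the survivin gene of the chromosomal passenger complex, was at 114 and 23.3 CPM in members, Cdc20, which activates the anaphase-promoting complex, at 43.4 and 6.41 CPM, Cdca3 at 62.3 and 9.62 CPM and Prc1, a midzone microtubule protein, at 73.3 and 17.6 CPM. Under the alternatives the lowest log2 ratios were 0.78 for Birc5 and 0.21 for Prc1, both short of 2-fold. They were 2.00 for Ube2c, 1.48 for Cdc20 and 1.25 for Cdca3. The cell cycle list had 13 of 25 genes at least 2-fold higher at P1 and 0 at P7, beside 3.32% and 3.78% of all genes, with a median log2 ratio of 1.35 in members and 0.19 in other gated fibroblasts. The list summed to 2314 CPM in members at P1 and 1063 CPM at P7, and to 1430 and 1191 CPM in the other gated fibroblasts. Among these, Col26a1/Dpep1 fibroblasts were at 1621 and 1052 CPM. Pi16/Clec3b fibroblasts were at 1313 and 1128 CPM and Fmod/Scx fibroblasts at 1346 and 1191 CPM. Cells in no class went the other way, at 1286 and 1485 CPM.

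A minority of members had a UMI of Ube2c or of Mki67. At least 2 genes of the cell cycle list were detected in 66 of 76 members at P1 (86.8%) and 70 of 79 at P7 (88.6%). These shares were close to the 81.1% and 84.1% of other gated fibroblasts. Mki67, the proliferation antigen, was detected in 16 of 76 members at P1 (21.1%, 12.5 to 31.9%) and in 10 of 79 at P7 (12.7%, 6.24 to 22.0%), and with each cell thinned to 2000 UMIs in 10.7% and 5.13%, intervals that overlap. In other gated fibroblasts it was detected in 10.0% and 9.19% of cells. Endothelial cells had it in 11.3% and 12.2%.

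In 4 other genes higher at P1 a single member held most of the UMIs. One member held 86.9% of the 198 UMIs of Pf4, a chemokine of platelets and macrophages, one 68.2% of the 151 UMIs of Ctla2a, one 79.4% of those of Nrgn and one 69.9% of those of Cdkn1a, the p21 gene. Without the member with most of its UMIs the log2 ratio was 2.28 for Pf4, 2.91 for Ctla2a, 1.35 for Nrgn and 0.55 for Cdkn1a. Sost, the Wnt inhibitor sclerostin, was found in 4 members at P1, at 49.7 CPM (63 UMIs, 42.9% of them in 1 cell), and in 0 at P7, where the floor is 2.41 CPM, so no ratio is given. Sulf2, a heparan sulfate sulfatase found in 43 members, was spread more evenly, at 82.8 CPM at P1 and 16.04 CPM at P7, as against 62.8 and 45.1 CPM in other gated fibroblasts, and Tuba1c, a tubulin, was at 59.1 and 13.6 CPM.

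Among the genes with the widest steps towards P7, Hs3st1, a heparan sulfate sulfotransferase, was at 11.0 CPM (6.04 to 18.5) in 7 members at P1 and at 108 CPM (90.8 to 128) in 39 members at P7, a log2 ratio of -3.25. Serpinf1, which encodes the antiangiogenic factor PEDF, was at 97.0 CPM at P1 and 386 CPM at P7, detected in 35 and 67 members, while the other gated fibroblasts were at 167 and 187 CPM. Tspan11, a tetraspanin, was at 22.9 and 116 CPM, and Wfdc1, a secreted protease inhibitor, at 15.8 and 90.6 CPM. Dio2, which activates thyroid hormone, was at 11.0 and 60.1 CPM in members and at 1.26 and 10.1 CPM in the others, so it was also higher in members at each age. Medag, Msc, Spink2, Tst, Itgbl1 and Pianp had log2 ratios between -2.001 and -2.79. For Medag, Msc, Spink2 and Pianp the other gated fibroblasts had the same direction, with log2 ratios of -1.84, -1.70, -2.62 and -2.18.

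Of 7 small leucine-rich proteoglycans tested, 4 were at least 2-fold higher at P7 and 0 at P1, beside 3.78% and 3.32% of all genes, with a median log2 ratio of -1.06 in members and -0.61 in other gated fibroblasts. Dcn was at 2832 CPM at P1 and 6375 CPM at P7, Lum at 972 and 2073 CPM, Prelp at 34.7 and 73.0 CPM and Omd at 0.789 and 19.2 CPM. Of 7 complement and chemokine genes 4 were likewise past 2-fold at P7 and 0 at P1, beside the same 3.78% and 3.32% (median -1.16, and -0.07 in the others). Serping1, the C1 inhibitor, was at 199 and 443 CPM, Cxcl16 at 19.7 and 67.4 CPM and C1s1 at 3.15 and 22.5 CPM.

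Among collagens, Col3a1 was at 5534 CPM in P1 and 13894 CPM in P7 members and Col1a1 at 4899 and 9052 CPM, both genes of the gate, and Col1a2, outside it, at 4521 and 7783 CPM. Col15a1, a basement membrane zone collagen, was at 162 and 522 CPM in members beside 499 and 546 CPM in other gated fibroblasts. Col11a1 went the other way, at 83.6 and 28.9 CPM. The fibrillar collagen list had 1 of 7 genes at least 2-fold higher at each age (median -0.18), other collagens and laminins 3 of 18 at P7 and 1 at P1, collagen processing 1 of 11 higher at P7 (P4ha2), and Sparc and Tnxb were the 2 of 9 matricellular genes higher at P7. These counts stand beside 3.32% of all genes at least 2-fold higher at P1 and 3.78% at P7.

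Some growth-control genes were higher at P1. Of 17 genes of the insulin-like growth factor and imprinted list 4 were at least 2-fold higher at P1 and 0 at P7, beside 3.32% and 3.78% of all genes (median 0.59, and 0.77 in the others). H19 was at 222 and 57.7 CPM in members, Igf2 at 15.8 and 0.802 CPM, Igfbp5 at 124 and 50.5 CPM and Dlk1, a ligand-like inhibitor of Notch, at 376 and 180 CPM. A single member held 47.1% of the Igfbp5 UMIs and one 39.8% of the Dlk1 UMIs at P1, and without it the log2 ratios were 0.42 and 0.34.

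In the elastic fibre list 0 of 20 genes were past 2-fold either way, beside 3.32% and 3.78% of all genes, with a median log2 ratio of -0.04 in members and 0.07 in other gated fibroblasts. Mfap4 was 1.96-fold higher at P7. Eln was 1.27-fold higher at P1, and its log2 ratio of 0.35 became -0.20 without the member with most Eln and -0.48 without cells that had a Myh11 UMI. Loxl1, which crosslinks elastin, was at 348 and 656 CPM, Ltbp4, a latent TGF-beta binding protein of elastic fibres, at 497 and 870 CPM, and Fbn2, the fibrillin of early development, at 134 and 92.2 CPM.

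**Figure D5:**
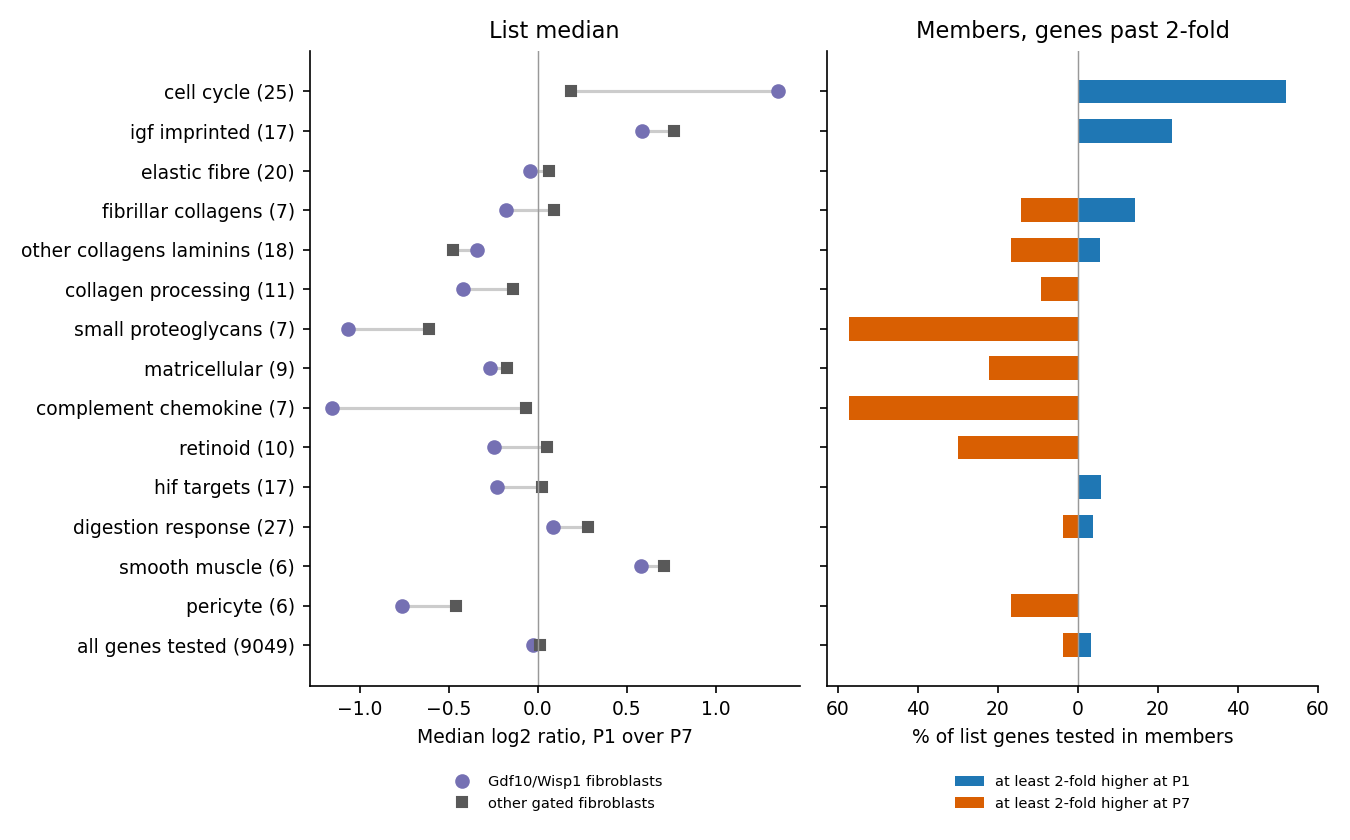
Left, middle log2 ratio (P1 over P7) among the genes of each list in Gdf10/Wisp1 members (circles) and other gated fibroblasts (squares), with the number of genes tested in brackets. Right, percent of the tested genes of each list at least 2-fold higher in members at P1 (bars to the right) or at P7 (bars to the left). Of the lists drawn, the cell cycle list lies farthest to the right, with 13 of 25 genes higher at P1, and small proteoglycans and complement and chemokine genes farthest to the left, with 4 of 7 each higher at P7.

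For some genes the step between the ages was unlike that of the other gated fibroblasts, a difference of 2 ratios that could not be tested. The others mix their classes in different proportions at the 2 ages. Pi16/Clec3b fibroblasts were 14.5% and 61.0% of gated cells and Col26a1/Dpep1 fibroblasts 34.2% and 10.4%, and steps within a class are not given here. Htra1, a secreted protease, was at 40.2 CPM in members at P1 and 149 CPM at P7, while the others were at 106 and 98.3 CPM. Tst, a mitochondrial sulfurtransferase, was at 8.67 and 48.9 CPM in members and 29.1 and 21.3 CPM in the others, and Itgbl1 at 7.10 and 40.1 CPM and 11.1 and 12.4 CPM. Pla2g12a, a secreted phospholipase, had 38.6 and 42.5 CPM in members and 196 and 49.7 CPM in the others. Dlk1 was 1007 CPM at P1 and 78.8 CPM at P7 in the other gated fibroblasts, a far wider step than in members.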

How the data were processed

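The data are 2 droplet single-cell RNA-seq libraries (10x Genomics 3′ chemistry) of whole mouse hearts. The authors aligned and counted reads with Cell Ranger 3.1.0 on mm10 (GRCm38), per the submitters' processing notes, and deposited UMI counts per gene and barcode, which were used as deposited. Barcodes with 200 to 8000 genes and at most 20% mitochondrial UMIs were kept. No doublet caller was run, and doublets were met by the gene limit and by leaving out the 6% of cells with most UMIs as an alternative. Members, gene lists and tests were chosen with earlier results of these data known. Counts were summed over cells per library and scaled to CPM. Log2 ratios used 0.5 added counts and genes with at least 20 summed UMIs. Shares have Clopper-Pearson, levels Poisson and ratios conditional binomial 95% intervals. They cover counting error only. Genes named were the 20 rule genes and 5 label markers, 12 genes highest and 12 lowest in members at both ages, 12 per direction between ages, 6 per direction in the difference of age ratios (each with at least 50 UMIs) and up to 4 per list of 37 lists, with rule genes, Xist, Tsix, Y-linked, haemoglobin and mitochondrial genes and Gm and Rik gene models left out of the rankings. Genes of lists beyond these, among them Tcf21, Pdgfra, Mki67, Fbn1, Fbn2, Fbln2, Fbln5, Emilin2, Lox, Ltbp4 and the hedgehog list, were named after their values were seen. Some genes are not reported here. Gene positions are from GENCODE M21 and promoters from RefSeq, both on GRCm38. Python 3.11.15, numpy 2.4.6, scipy 1.17.1 and pandas 2.3.3 were used, and the code was tested on simulated counts.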

Additional observations from a re-analysis of the deposited data

Results flagged for a closer look

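Among the genes picked by the naming rule, 3 had log2 ratios between the ages of opposite sign in the members and in the other gated fibroblasts, both at least 0.5 in size with counting intervals away from 0, on at least 50 UMIs in members at one of the ages. Further named genes also had opposite signs, but with a smaller ratio in at least one of the groups or fewer UMIs, among them Gdf10, Wisp1, Htra1, Tst, Cdkn1a, Sfrp2, Id3 and Fst. The difference between the 2 ratios was not tested, since each age is 1 library. Tmem100, a membrane protein of vascular cells, had a log2 ratio of 1.06 in members and -1.45 in the others. Rgs5, a pericyte marker, had 0.89 and -0.66. Among the others, Rgs5 was higher at P7 in the cells in no class (532 and 1374 CPM) and in Col26a1/Dpep1 fibroblasts (59.3 and 86.6 CPM). It was higher at P1, as in members, in Pi16/Clec3b (72.2 and 57.9 CPM) and Fmod/Scx fibroblasts (109 and 97.8 CPM). Cpa1, a carboxypeptidase, had -1.61 and 0.79. The value for Cpa1 leaned on a single member with 48.6% of its UMIs at P7, and was -0.68 without it. Under the alternatives the ratio in members fell to -0.058 for Rgs5, with cells chosen without Gfra2, and to 0.03 for Tmem100, with ties allowed.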

How the results depend on the processing

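No paired analysis was possible because each age is 1 library, and no replicate could be left out. The shares of members at P1 and P7 were 2.80 and 1.93% with at least 3 list genes, 7.70 and 5.76% with ties allowed, 1.99 and 1.06% scored without Gdf10, 1.78 and 0.998% without Wisp1, 2.64 and 1.33% without Rbp4, 1.72 and 0.898% without Gfra2, and 1.21 and 1.25% with cells thinned to 2000 UMIs. With 5000 UMIs the shares were 2.94 and 2.23%. Leaving out cells with 2 or more genes of another cell type left 3 and 2 members (0.813 and 0.3597%), too few for gene values. The genes at least 2-fold higher at P1 and at P7 numbered 44 and 57 at 2000 UMIs, 172 and 223 at 5000 UMIs, 119 and 138 with at least 50 summed UMIs and 515 and 564 with at least 10. The genes at least 2-fold higher in members than in other gated fibroblasts at both ages numbered 928, 1089, 773 and 1250 without Gdf10, Wisp1, Rbp4 and Gfra2, 1507 at 2000 UMIs, 851 with 1 count added, 233 with at least 50 and 770 with at least 10 summed UMIs, and 179 with counts added in proportion, a choice made after seeing the data, as was leaving out cells with Myh11. The count added to the small sum of the members by construction moves this number. The median of the elastic fibre list ranged from -0.42 to 0.08.

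Of the values of single named genes under the alternatives, 3455 stayed within the counting interval and 651 moved beyond it. Their sign changed in 150 cases in all, and in 8 of them, given next, the ratio had been at least 2-fold with its interval away from 0. The ratio of P1 over P7 became 0.035 for Cpa1 without Gdf10, 0.36 for Sema3c without Rbp4, and -0.54 for Igfbp5 and -0.16 for Tbx18 without Gfra2. At 2000 UMIs the ratio of members over others at P1 became 0.42 for Dpp4, 0.63 for Comp, 0.20 for Ccl7 and 0.52 for Onecut2, each with 0 UMIs in members, where the added count sets it. Members over others stayed above 0 for Foxd1, Enpep, Ptch1, Gli1, Nnat and Mfap4 under the alternatives run, and Eln at P1 ranged from -0.44 to 1.63. Col8a1 fell short of 2-fold at P7, where its lowest log2 ratio of members over others was 0.24. Depth limits what absence means: 1 UMI in members is worth 0.789 CPM at P1.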

Other observations

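Genes of the response to low oxygen were read in Gdf10/Wisp1 fibroblasts as well. Of 17 tested targets of hypoxia-inducible factors 1, Egln3, was at least 2-fold higher at P1 and 0 at P7, on 16 and 6 UMIs, beside 3.32% and 3.78% of all genes, and the list summed to 1097 CPM in members of P1 and 1147 CPM in those of P7, against 1349 and 1352 CPM in other gated fibroblasts. Adm, which encodes adrenomedullin, was at 11.0 and 15.2 CPM in members against 36.6 and 41.8 CPM. Of 6 tested subunits and regulators 0 passed 2-fold either way on ratios with 0.5 counts added. Epas1, which encodes HIF-2 alpha, was at 9.46 and 19.2 CPM and close to that limit (log2 ratio -0.995), and Arnt, its partner, at 26.8 and 33.7 CPM.

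Genes known to respond to tissue digestion summed to 11803 CPM at P1 and 11581 CPM at P7 in members, after digestions of 20 min and 45 min. Nfkbia was the 1 of 27 at least 2-fold higher at P1 and Dusp1 the 1 higher at P7, beside 3.32% and 3.78% of all genes. Tbx20, a cardiac transcription factor, was at 173 and 169 CPM in members against 475 and 317 CPM in other gated fibroblasts, and Wt1, the factor of the epicardium, had 1 and 0 UMIs.

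At P7 also some genes came from 1 member: all 26 UMIs of Gfra3 and 85.0% of 20 UMIs of Vtn. One member held 70.8% of the 48 UMIs of the activin antagonist Fst.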
